A study of Mus musculus with 12 samples.

Results

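The cells described are PSA-NCAM-enriched cells at step 5 of a neural differentiation protocol, set against the undifferentiated mouse embryonic stem cells (mESC) they derive from. They were chosen by their labels and make up 3 of the 12 arrays of the study. The stem cells were of strain C57BL/6 and were labelled Actin-eGFP, as was every group. They were grown as embryoid bodies for 4 days, selected for neural progenitors in serum-free medium with fibronectin for 6 days (step 3) and expanded for 5 days on polyornithine and laminin with N2 supplement and bFGF at 10 ng/ml (step 4). At step 5 the cells were kept for 7 days without bFGF, with B27 in place of N2 and with ascorbic acid at 200 µM. Enriched cells carried PSA-NCAM, the polysialylated neural cell adhesion molecule, and had been bound through an antibody to magnetic beads after removal of dead cells, and control cells of the same step had not been enriched. The labels do not say whether the step 5 cells were sorted before or after those 7 days.

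Each array carried a Cy5-labelled sample and the mESC reference labelled with Cy3, so every value is a log2 ratio of the sample to mESC on the same array. The mESC RNA is a common reference, so its own spread between cultures is not part of the test. No dyes were swapped, and a dye effect on a probe cannot be told apart from a difference between the cells and mESC. Such an effect cancels where step 5 enriched cells are compared directly with another group. The stem cells had grown on mouse fibroblasts, which were removed before embryoid bodies were formed, and the labels do not say whether this also held for the reference RNA. In bulk RNA, a change in the number of cells of a type and a change in RNA per cell cannot be told apart.

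Stem cells keep their identity through a network of transcription factors around Oct4, Nanog and Sox2, and divide rapidly. On the way to neurons this network is switched off, proneural factors start neuronal genes, and dividing precursors leave the cell cycle. Polysialic acid on NCAM loosens contacts between cells and is typical of migrating precursors and young neurons, but some glial precursors carry it too. Neural precursors that do not become neurons can later form astrocytes and oligodendrocytes.

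The log2 ratios of the 3 step 5 enriched arrays correlated with each other at 0.936 to 0.958 across probes, which are not independent replicates, and at 0.841 to 0.903 with step 4 enriched arrays. Of 39429 probes, 27961 to 28950 per array stood well above background in Cy5 and 24933 to 25558 in Cy3, and 0 were saturated. The replicate number was also the slide, and slide 2 differed from the others in its scan day and in the version of the scanner software. Replicate 2 of the step 5 control cells stood apart from the other control arrays of that step, with correlations of 0.649 and 0.745 to them against 0.906 between those. The spike-in RNAs of the step 5 enriched arrays followed their designed ratios with slopes of 0.894 to 0.93.

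The first question was how far the enriched step 5 cells had moved from the stem cells. Expression differed from mESC for most genes: of 16772 genes with a symbol and a probe detected in either channel, 7130 were higher (42.5%) and 5455 were lower (32.5%) at an adjusted p under 0.05, and at least 2-fold differences were found for 3832 (22.8%) and 2490 (14.8%). The median log2 ratio over these genes was 0.12, the central 90% ran from -1.93 to 2.75, and the median SD over the 3 arrays was 0.18. Of the probes, 38.2% were higher and 34.1% lower, so that 52.8% of the called probes were higher. This split moved with the scaling: without loess and with median centring 75% of the called probes were higher, and the median over genes was 0.59. Of the 16772 genes, 1284 were detected in Cy5 but not above background in mESC on all 3 arrays, and 189 were detected in mESC and not in the enriched cells. For these genes the ratio is a lower bound, written as "at least", and they had to fall on their own side of mESC. The bound belongs to the processing used here and is not a minimum over other settings. Over the settings tried, the mean log2 ratio ran from 3.58 to 8.97 for Zic1 and from 2.84 to 9.36 for Dcx. A further 597 genes were detected in Cy5 on all 3 arrays but in mESC only on some, and for 343 the reverse held. Their folds are written without "at least", although the weaker side was not always above background. Syt1, Chl1, Cldn11, Grm5, Meis2 and Actl6b lacked such a signal in mESC on some arrays. Over the same settings Chl1 ran from 4.64 to 8.96 and Grm5 from 1.62 to 6.36.

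The genes with the highest ratios, among those detected on both sides, came from glia, neurons and connective tissue. Sparcl1, which encodes a secreted protein of astrocytes, had log2 ratios of 8.32, 9.25 and 10.07 in replicates 1, 2 and 3, or 594-fold (SE 0.80, adjusted p = 2.11e-06). Its probe lies at chr5:104508149-104508208 on mm9. Gpm6b, a membrane proteolipid of neurons and glia, was 274-fold higher and Cpe, an enzyme that processes neuropeptides, 187-fold. They were followed by Col1a1, Igfbp5, Mgp, Nsg2, Zcchc12, Dcn, Fabp7, Col3a1 and Gfap, from 171-fold for the first to 80.5-fold for the last. Among genes not detected in mESC, Lum, a proteoglycan of connective tissue, was at least 90.8-fold higher. Zic1, a factor of neural precursors, was at least 89.5-fold higher. Lrrn3, Gpm6a, Scg2 and Dcx followed with bounds from 81.2-fold to 47.2-fold.

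At the other end stood genes of the stem-cell state. Fgf4, which encodes a growth factor made by stem cells, had log2 ratios of -6.09, -4.03 and -7.28 and was 55.7-fold lower (SE 0.60, adjusted p = 7.33e-06). Its probe lies at chr7:152051089-152051148 on mm9. Rpl39l and Rpl10l, retrogene relatives of ribosomal protein genes, were 48.4-fold and 33.2-fold lower. Tdh, the threonine dehydrogenase on which mouse stem cells depend, was 32-fold lower, and Morc1, known from the germline, 33.2-fold. Arl14epl, Ly6g6e, Mep1b, Zfp42, Nr0b1 and Dppa5a were 30.4-fold to 43.2-fold lower. Pigp was 28.6-fold lower by its brightest probe, but another probe of the gene was called the opposite way. Detected in mESC alone were, among others, Lrriq4, Pramel6 and Klk1b26, at least 13.7-fold, 12.7-fold and 8.09-fold lower.

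**Figure D1:**
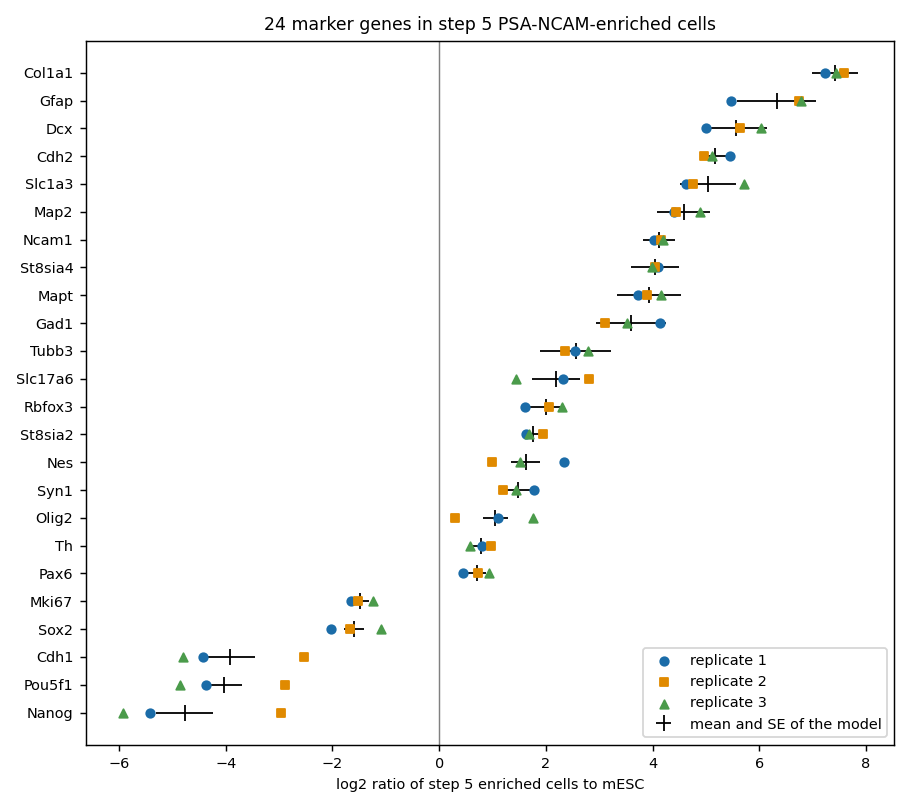
Log2 ratio of step 5 enriched cells to mESC (x axis) for 24 of 26 marker genes (y axis), with a point for each of 3 replicates and a black mark with bar for the mean and SE of the model. Nanog, Pou5f1 and Cdh1 lie farthest left with replicate 2 nearest to 0, and Col1a1 and Gfap lie farthest right.

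The marker genes of the main cell types were examined next, as the plot of marker genes shows. All 26 passed the test. They separated into 5 that were lower than in mESC (Pou5f1, Nanog, Sox2, Cdh1 and Mki67) and 21 that were higher, and all kept their call in every alternative that tested against no change. In a test against a 2-fold difference, 8 of the 26 no longer passed.

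Pluripotency genes were the most reduced list. Of 21 pluripotency factors tested, 20 were lower and 1 was higher, where 32.5% of all genes were lower and 42.5% higher, with a median log2 ratio of -3.41 against 0.12 over all genes. The same shares over all genes apply to the counts of the lists that follow. Pou5f1, which encodes Oct4, had log2 ratios of -4.37, -2.89 and -4.85, or 16.4-fold lower (SE 0.34, adjusted p = 1.58e-06), with its probe at chr17:35647280-35647340. Nanog had ratios of -5.42, -2.96 and -5.93, or 27.3-fold lower (SE 0.54, adjusted p = 1.42e-05). All 3 arrays were far below mESC for both genes, and replicate 2 was the least reduced. Zfp42 (Rex1), Nr0b1 and Nr5a2, further members of the network, were 35.4-fold, 31.4-fold and 20.6-fold lower. The exception was Otx2, a factor of the primed stem-cell state and of the early fore- and midbrain, which was 3.79-fold higher with ratios of 2.48, 1.82 and 1.47. Sox2, shared by stem cells and neural precursors, was among the less reduced members, with ratios of -2.02, -1.67 and -1.09.

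Of the 28 genes of stem-cell signals and germ-cell-like expression, 24 were lower, 0 were higher and the median was -2.50. Besides Fgf4, Dppa5a, Lefty2, an inhibitor of Nodal, and Dnmt3l, a cofactor of DNA methylation, were 30.4-fold, 28.3-fold and 25.8-fold lower. The genes that did not pass were Lif, its receptor gene Lifr, Lin28b and Hmga2. Hmga2, a chromatin protein of fetal growth, had ratios of 0.12, 0.20 and -0.84.

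The weaker fall in replicate 2 ran through both lists. The median of the pluripotency factors was -3.62, -2.90 and -3.84 in replicates 1, 2 and 3, and that of the stem-cell signals -3.00, -2.11 and -2.92. Without replicate 2 the mean log2 ratio of Pou5f1 went from -4.04 to -4.61, that of Nanog from -4.77 to -5.68 and that of Fgf4 from -5.80 to -6.69. Step 4 enriched cells showed the same order, with Pou5f1 at -4.89, -3.50 and -4.94. Slide 2 was the slide read with another software version, and the part this had in the result was not tested. In the control cells of step 5 the pluripotency median was -0.81 to -0.89, so enriched cells lay far below them, and 18 of the 21 factors were lower than in those cells (background 20.3%).

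Neuronal genes were higher in most lists, beginning with the enriched antigen. Of 8 genes of NCAM and polysialic acid metabolism 7 were higher and 0 lower, with a median of 1.80. Ncam1, the gene of the protein that carries polysialic acid, had ratios of 4.03, 4.15 and 4.19, or 17.4-fold (SE 0.30, adjusted p = 6.51e-07). St8sia4 and St8sia2, the polysialyltransferases that act on NCAM, were 16.5-fold and 3.38-fold higher, and the 3 arrays lay close together for both genes. St8sia3 was 10.9-fold higher. St8sia5, a sialyltransferase of gangliosides, varied more, with ratios of 0.44, 2.29 and 2.81. Neu1, a lysosomal sialidase, did not pass, with a mean of 0.21.

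Among neuronal transcription factors 24 of 31 were higher and 4 lower, with a median of 1.40. Sox4, Myt1l and Bcl11a, factors of newly formed neurons, were 20.6-fold, 15.3-fold and 13.9-fold higher. The 4 that were lower were Eomes (4.42-fold), which is also a gene of early mesoderm and trophoblast, Pou4f1 (2.18-fold), a factor of sensory neurons, Neurod1 (1.82-fold) and Neurog1 (1.21-fold). Neurog1 lost its call in 4 alternatives. Of the 31 genes 10 were not detected in mESC and could only be higher.

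Genes of the neuronal cytoskeleton and growth cone were higher for 25 of 29, with a median of 2.78. Dcx, a microtubule protein of migrating neurons, had ratios of 5.00, 5.65 and 6.03, and as mESC lacked a signal above background it was at least 47.2-fold higher (adjusted p = 8.01e-06). Its probe lies at chrX:140290854-140290913. Stmn4, Gap43, Stmn3 and Map2, which act on microtubules and the growth cone, were 58.6-fold, 34-fold, 25.9-fold and 24-fold higher. Tubb3, the neuronal tubulin, had ratios of 2.54, 2.35 and 2.78 and was 5.88-fold higher. Of the neurofilament-type genes, Nefh (ratios -0.36, -1.16 and -2.16) and Prph (5.63-fold) were lower than in mESC. Prph marks neurons outside the brain and Nefh mature large axons, and the call for Nefh was lost in 3 alternatives.

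Synaptic genes were higher for 33 of 39 and lower for 2, with a median of 2.02 and 7 genes undetected in mESC. Nrxn3, a presynaptic adhesion protein, was at least 29.6-fold higher, and Syt1, the calcium sensor of vesicle release, was 42.4-fold higher. Syn1, a protein of the vesicle surface, was 2.77-fold higher with ratios of 1.77, 1.20 and 1.44. The 2 lower genes were Sncg (2.11-fold), a synuclein, and Shank1 (1.19-fold). The brightest probe of Shank1 was contradicted by another probe, and the sign turned when all its probes were averaged.

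Genes of inhibitory and excitatory transmission were both higher. All 25 tested genes of GABA neurons were higher, with a median of 2.77, and 12 of them were not detected in mESC, so these could only be higher. Slc32a1, the transporter that loads GABA into vesicles, had ratios of 5.55, 5.57 and 5.85, or 50.4-fold (SE 0.73, adjusted p = 3.99e-05). Sp8, a factor of interneurons, was at least 27.1-fold higher, and Dlx2, a factor of interneuron progenitors, was 18.2-fold higher. Gad1, which makes GABA, had ratios of 4.14, 3.11 and 3.52, or 12.1-fold (adjusted p = 0.000505).

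Of 18 genes of glutamate neurons and receptors 16 were higher and 0 lower, with a median of 1.66 and 10 genes undetected in mESC. The receptor genes Grm5, Gria4 and Gria1 were 16.4-fold, 13.5-fold and at least 12.3-fold higher. Slc17a6, the vesicular transporter that defines many glutamate neurons, was at least 4.55-fold higher with ratios of 2.32, 2.80 and 1.44. Its relative Slc17a7, typical of cortical neurons, did not reach the detection needed for a test. Whether the GABA and glutamate lists differ from each other was not tested.

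Genes of dopamine, serotonin and acetylcholine neurons were higher for 9 of 21 and lower for 4, and their median of 0.32 lay near that of all genes. Over all genes 42.5% were higher and 32.5% lower. Of the 21 genes 6 were not detected in mESC and could only be higher, and without replicate 1 or 2 of step 5 enriched cells 2 were lower. Aldh1a1, which makes retinoic acid and is found in a part of dopamine neurons, stood out at 19.3-fold with ratios of 4.19, 4.58 and 4.04. Th, the first enzyme of dopamine synthesis, had ratios of 0.80, 0.98 and 0.59, or 1.73-fold (adjusted p = 0.00199). Pitx3 and En2, factors of midbrain dopamine neurons, were 1.41-fold and 1.99-fold lower, and Phox2a, a factor of noradrenergic neurons, was 3.82-fold lower. En2 lost its call in 4 alternatives, among them without replicate 1 or 2 of step 5 enriched cells (adjusted p up to 0.477 in limma), and Pitx3 lost it without loess (0.619). Tph1, Tph2, Slc6a4 and Dbh, which define serotonin and noradrenaline neurons, were not detected well enough to be tested.

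Voltage-gated channel genes were higher for 20 of 24 and lower for 0, with a median of 1.64 and 7 genes undetected in mESC. Kcnd3 and Kcnd2, channels of the A-type potassium current, were 34.1-fold and at least 15.2-fold higher, and Scn3a, the sodium channel of immature neurons, 13.8-fold. Kcnj10, a potassium channel of glia, was 32.2-fold higher with ratios of 5.91, 4.95 and 4.17. Neuropeptide and granin genes were higher for 21 of 27, led by Cpe, Scg2 (at least 61.2-fold), Chgb (60.7-fold) and Scg3 (39.9-fold), which belong to dense-core vesicles. Against this trend Trh, the thyrotropin-releasing hormone gene, was 19.3-fold lower with ratios of -3.96, -3.94 and -4.92. Pomc and Gal were 1.3-fold and 1.45-fold lower.

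Genes of neural adhesion, migration and axon guidance were higher for 38 of 42 and lower for 0, with a median of 2.27 and 10 genes undetected in mESC. Chl1, Cntn1 and Nrcam, adhesion molecules of the immunoglobulin family to which Ncam1 belongs, were 69.7-fold, 46.8-fold and 41.8-fold higher. Negr1, of the same family, was at least 19.8-fold higher. The 4 genes that did not pass were Nrp2, Unc5b, Dab1 and Cntn2.

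**Figure D2:**
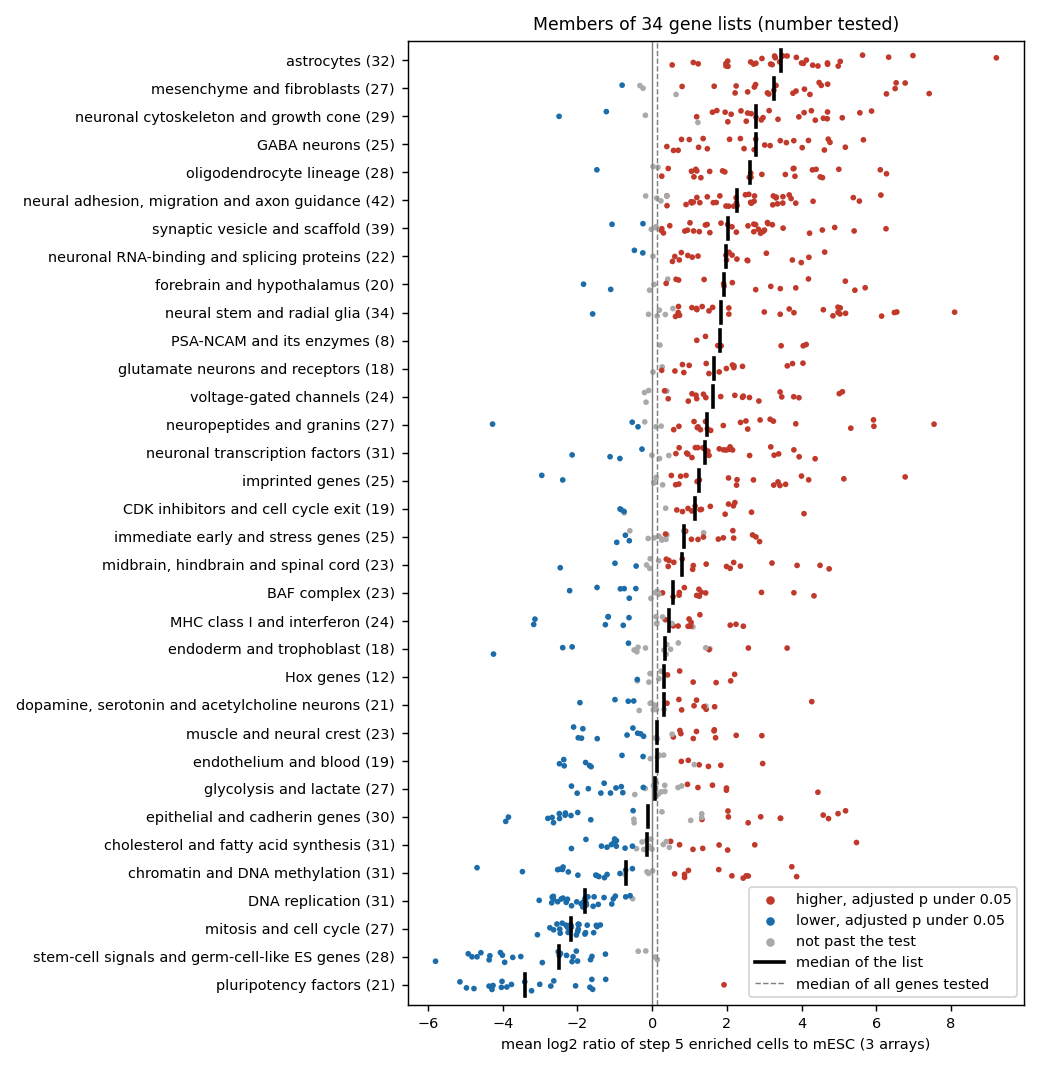
Mean log2 ratio of step 5 enriched cells to mESC (x axis) for the tested members of 34 gene lists (y axis, number tested in brackets), with red points for higher, blue for lower and grey for not past the test, black bars for list medians and a dashed line for the median of all genes. Pluripotency, stem-cell signals, mitosis and DNA replication lie to the left, and astrocyte, mesenchyme and neuronal lists to the right.

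Neurons and stem cells often use different members of a gene family, so 27 pairs of related genes were compared. The second gene was in most pairs a form used by neurons, and in others one of glia, neural precursors or resting cells, or, for Lin28b, another stem-cell gene. In 10 pairs the first gene was lower than in mESC and the second higher, in 8 both were higher, and in 0 were both lower or the order reversed. Of all single genes 42.5% were higher and 32.5% lower, and a share over pairs of other genes was not taken. The mean log2 ratio of the second gene lay above that of the first in 25 pairs. The widest gaps were between Cdh1 (E-cadherin, ratios -4.42, -2.54 and -4.80) and Cdh2 (N-cadherin, 5.44, 4.97 and 5.12), and between the DNA methyltransferase genes Dnmt3b (11.1-fold lower) and Dnmt3a (14.6-fold higher). The probe of Cdh1 lies at chr8:109193812-109193871. Ptbp1, a splicing repressor of dividing cells, was 2.77-fold lower and Ptbp2, its form in young neurons, 2.34-fold higher. Elavl1 was 1.9-fold lower and Elavl3, the neuronal form, 4.41-fold higher with ratios of 1.99, 1.99 and 2.45, although another probe of Elavl1 was called the opposite way.

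**Figure D3:**
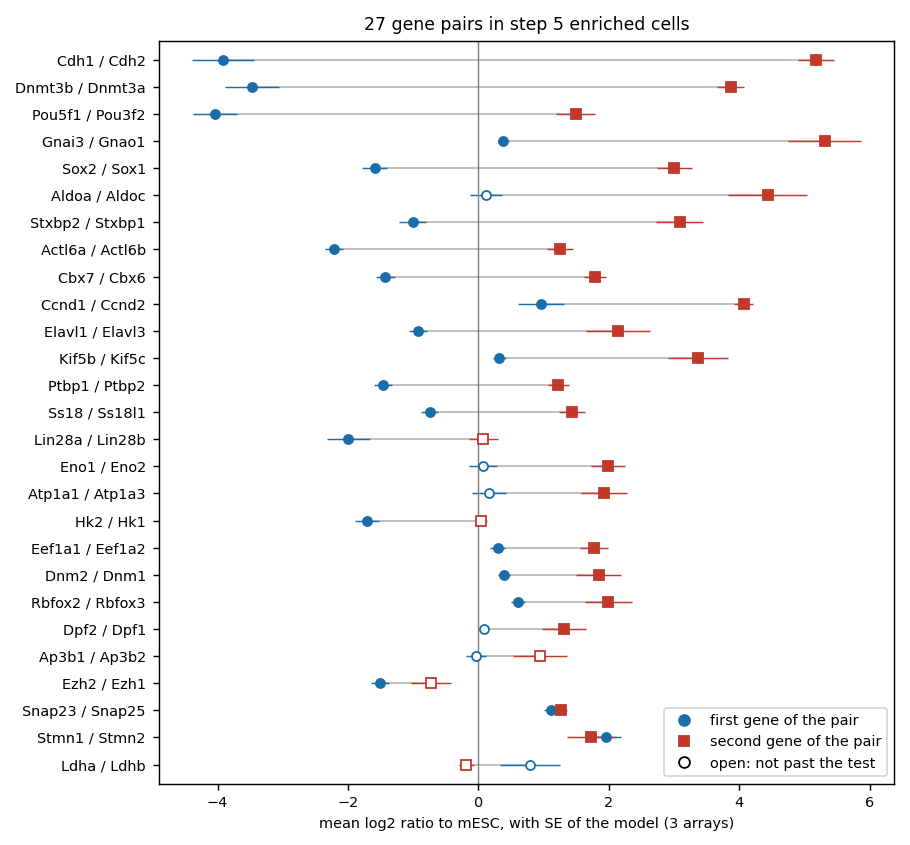
Mean log2 ratio to mESC with SE (x axis) for 27 gene pairs (y axis), with blue circles for the first and red squares for the second gene and open symbols for genes not past the test. The second gene lies to the right of the first in 25 pairs, with the widest gap for Cdh1 and Cdh2.

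Not every pair followed this order. Stmn1 and Stmn2, both of which regulate microtubules, were 3.87-fold and 3.32-fold higher. Ldha and Ldhb, the lactate dehydrogenase subunits, did not pass, with means of 0.79 and -0.18. Ezh1, the Polycomb enzyme of resting cells, had an adjusted p of 0.0512, and of 0.00556 with the replicate number as a block, where Ezh2 was 2.85-fold lower. Several housekeeping members moved little: Eef1a1 and Kif5b were 1.23-fold and 1.25-fold higher and lost their calls in 10 and 6 alternatives. Their neuronal partners Eef1a2 and Kif5c were 3.43-fold and 10.3-fold higher.

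In the BAF chromatin-remodelling complex, which exchanges subunits when neurons form, 13 of 23 genes were higher and 6 lower. Actl6a, of the precursor form, was 4.63-fold lower with ratios of -2.15, -2.10 and -2.38, and Actl6b, of the neuronal form, was 2.38-fold higher. Ss18 was 1.68-fold lower and Ss18l1 2.7-fold higher. The largest ratio was that of Smarca2, an ATPase of the complex, at 20.1-fold. Of 31 other chromatin and DNA methylation genes 11 were higher and 16 lower, with a median of -0.71. Tet1, Dnmt3b and Dnmt3l were 5.58-fold, 11.1-fold and 25.8-fold lower, while Dnmt3a, a DNA methyltransferase, and Bmi1, a Polycomb gene, were 14.6-fold and 5.72-fold higher.

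Neuronal RNA-binding and splicing proteins were higher for 19 of 22, with a median of 1.98. Rbfox1, Celf6, Celf2 and Celf3, splicing regulators, were 24.6-fold, 18.3-fold, 15.9-fold and 13.5-fold higher. Rbfox3, known as the neuronal marker NeuN, had ratios of 1.61, 2.07 and 2.30, or 3.98-fold. Fmr1, which encodes FMRP, was 1.39-fold lower and Nova1 1.19-fold lower. Nova1 lost its call in 11 alternatives and its sign turned when all its probes were averaged.

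Genes of neural stem cells and glia were higher as well. Of 34 genes of neural stem cells and radial glia, the precursors that line the ventricles, 28 were higher and 1, Sox2, was lower. Their median was 1.84, and 5 genes were undetected in mESC. Without replicate 3 of step 5 enriched cells 23 were higher. Fabp7, a lipid-binding protein of radial glia, was 93.7-fold higher with ratios of 6.40, 6.42 and 6.83. Slc1a3, the glutamate transporter GLAST, was 32.8-fold higher. Nes, the intermediate filament nestin, had ratios of 2.35, 0.99 and 1.52, or 3.07-fold, and Pax6, a factor of cortical radial glia, 0.44, 0.73 and 0.93, or 1.62-fold. Sox1, a relative of Sox2 found in neural precursors, was 8.01-fold higher.

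All 32 astrocyte genes were higher, with a median of 3.46, and 3 of them were not detected in mESC. Gfap, the intermediate filament that defines astrocytes, had ratios of 5.47, 6.74 and 6.78, or 80.5-fold (SE 0.74, adjusted p = 1.92e-05), with its probe at chr11:102748864-102748923. Aqp4, the water channel of astrocyte endfeet, had ratios of 4.29, 5.90 and 6.70, or 49.6-fold. Mlc1, a membrane protein of the same endfeet, was 126-fold higher on the 2 arrays that gave it a value. Aldoc, an aldolase of astrocytes, was 21.7-fold higher and Apoe, which carries lipids, 4.08-fold.

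Of 28 genes of the oligodendrocyte lineage 25 were higher and 1 lower, with a median of 2.62 and 4 genes undetected in mESC. Bcan, a matrix proteoglycan shared by precursors and astrocytes, and Cldn11, the claudin of myelin, were 77.3-fold and 68.9-fold higher. Mag, an adhesion protein of myelin, had ratios of 4.09, 4.42 and 4.36, or 19.6-fold (SE 0.36, adjusted p = 1.52e-06). Sox10, a factor of the lineage, was 7.66-fold higher. Olig2, a factor of oligodendrocyte and motor neuron precursors, varied between arrays with 1.10, 0.29 and 1.76.

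Genes of cell division were lower without exception in the mitosis list. All 27 mitosis and cell cycle genes were lower, with a median of -2.16 and per-array medians of -2.22, -1.92 and -2.17. Bub1 and Bub1b, of the spindle checkpoint, were 8.41-fold and 6.23-fold lower, and Espl1, the protease separase that parts sister chromatids, 6.67-fold. Top2a, which untangles DNA, had ratios of -2.87, -2.29 and -2.49, or 5.85-fold lower (SE 0.14, adjusted p = 9.47e-08). Mki67, the proliferation marker Ki-67, had ratios of -1.66, -1.53 and -1.24, or 2.78-fold lower.

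Of 31 genes of DNA replication 30 were lower and 0 higher, with a median of -1.80. Gins1, part of the replicative helicase, was 8.14-fold lower, and Cdc6, Orc1 and Cdt1, which license replication origins, were 6.45-fold, 6.39-fold and 6.26-fold lower. Of 19 genes listed for CDK inhibition and cell cycle exit, which include the D cyclins that drive division, 14 were higher and 3 lower, and without replicate 3 of step 5 enriched cells 1 was lower. Cdkn1b, which encodes the inhibitor p27, had ratios of 2.11, 2.18 and 2.24, or 4.52-fold, and Cdkn2b, which encodes p15, 3.53, 2.20 and 2.24, or 6.32-fold. Cdkn1a (p21) had 2.86, 2.99 and 0.79, with another probe called the opposite way. Among the D cyclins, Ccnd2 was 16.7-fold higher, Ccnd1 1.94-fold higher with its call lost in 6 alternatives, and Ccnd3 1.82-fold lower.

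The promoters of the mitosis and replication genes were searched for elements known from cell-cycle genes. The matches depend on the choice of genes and not on the array values, and a cause of the lower ratios was not tested. The letters searched, on both strands, were TTTGAA for the cell-cycle homology region (CHR), CCAAT for the CCAAT box, and TTTCCCGC or TTTGGCGC for E2F. The sequences are those of RefSeq on GRCm38.p6 from 250 bases before to 50 after a gene's start, which 21 of the 27 mitosis genes and 26 of the 31 replication genes had. TTTGAA and CCAAT stood together in 16 of the 21 mitosis promoters (76.2%) and 3 of the 26 replication promoters (11.5%), against 8% of 27025 genes of the table and 6.1% of the tested genes. The E2F letters stood in 0 of the mitosis and 9 of the replication promoters (34.6%), against 1.8% of all genes and 3% of the tested genes. A match is a run of letters, not a measured binding site. The 150 bases before the start are shown for the 3 mitosis genes and 2 replication genes with the lowest ratios that hold these letters there. This choice left out the promoters of a single chromosome. Capitals mark the CHR and CCAAT letters in the mitosis genes and only the E2F letters in the replication genes:
Espl1, chr15:102296143-102296292, plus strand: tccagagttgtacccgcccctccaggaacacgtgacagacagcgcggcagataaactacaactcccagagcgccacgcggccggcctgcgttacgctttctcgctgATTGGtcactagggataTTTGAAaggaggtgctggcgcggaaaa
Top2a, chr11:99024190-99024339, minus strand: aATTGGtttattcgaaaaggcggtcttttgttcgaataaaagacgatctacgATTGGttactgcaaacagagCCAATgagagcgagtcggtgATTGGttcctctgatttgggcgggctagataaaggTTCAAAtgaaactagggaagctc
Kif11, chr19:37376232-37376381, plus strand: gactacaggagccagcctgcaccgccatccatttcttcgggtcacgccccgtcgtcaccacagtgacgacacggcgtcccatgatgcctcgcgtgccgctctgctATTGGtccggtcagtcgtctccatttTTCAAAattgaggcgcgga
Cdc6, chr11:98908001-98908150, plus strand: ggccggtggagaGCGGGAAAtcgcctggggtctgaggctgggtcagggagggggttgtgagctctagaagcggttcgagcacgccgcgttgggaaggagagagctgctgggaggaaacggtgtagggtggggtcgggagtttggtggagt
Pola1, chrX:93632156-93632305, minus strand: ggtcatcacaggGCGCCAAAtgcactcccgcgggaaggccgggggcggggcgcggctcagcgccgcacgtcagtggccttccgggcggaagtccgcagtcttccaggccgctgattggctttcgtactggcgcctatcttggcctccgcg

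In Espl1 the CCAAT letters, read on the other strand, begin 44 bases before the start and the CHR letters 27 bases before it. In Kif11 they begin 45 and 19 bases before it, and in Top2a the nearest CCAAT letters begin 58 and the CHR letters 23 bases before it. Top2a holds the CCAAT letters 4 times. Kif11, a motor of the spindle, had a log2 ratio of -2.03, and Pola1, the catalytic subunit of DNA polymerase alpha, of -1.85.

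Genes of several brain regions were higher. Of 20 forebrain and hypothalamus genes tested 15 were higher and 2 lower, with a median of 1.92, and 6 were not detected in mESC and could only be higher. Nr2f1, a factor of cortical areas and interneurons, had ratios of 5.07, 5.94 and 6.09, or 52.1-fold. The lower genes were Hesx1 (3.57-fold) and Rax (2.16-fold), factors of the early forebrain and eye field. Of the 26 listed genes Emx1 and Emx2, factors of the dorsal telencephalon, were among 6 that were not detected well enough to be tested.

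Genes of midbrain, hindbrain and spinal cord were higher for 16 of 23 and lower for 3, with a median of 0.81, and 6 could only be higher for the same reason. Meis2, Meis1 and Dbx2 were 26.7-fold, 22.5-fold and 14.7-fold higher, and Gbx2, a factor of the anterior hindbrain that stem cells also use, was 5.51-fold lower. Of 29 Hox genes only 12 were detected well enough, with 6 higher, 1 lower and a median of 0.32, and without replicate 3 of step 5 enriched cells 0 were lower. The share of higher genes over all genes was 42.5%. Hoxa2, Hoxb2 and Hoxa3, expressed in the hindbrain, were at least 4.62-fold, 4.29-fold and 3.28-fold higher. The median of the Hox list was -0.07 over the 6 genes measured in both channels.

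Markers of cells outside the neural lineage were present beside these genes. Of 27 genes of mesenchyme and fibroblasts 23 were higher than in mESC and 1 lower, with a median of 3.26 and 7 genes undetected in mESC. Col1a1, the main fibrillar collagen, had ratios of 7.23, 7.58 and 7.44, or 171-fold (SE 0.43, adjusted p = 1.35e-07), with its probe at chr11:94813115-94813174. Dcn and Col3a1 were 109-fold and 92.5-fold higher. The median of this list was 3.17 to 3.37 on the step 5 enriched arrays, 2.16 to 3.46 in step 5 control cells, 2.00 to 2.89 in step 4 enriched cells and 1.43 to 1.95 in step 4 control cells. Against step 5 control cells 0 of its genes were higher and 2 lower in the limma test (1 and 3 at an unadjusted p under 0.05), and Col1a1 differed by 0.25 (SE 0.60, adjusted p = 0.771). The part of mesenchymal cells in the results above was not tested.

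Other foreign lineages were mixed, where 42.5% of all genes were higher and 32.5% lower. Of 19 tested genes of endothelium and blood 6 were higher and 8 lower, led by Cd34 (7.77-fold higher) and Egfl7 (5.59-fold lower). Cdh5, the cadherin that defines endothelium, had ratios of 0.58, 2.22 and 2.71 and was at least 3.55-fold higher. Without replicate 3 of step 5 enriched cells Cdh5 lost its call (adjusted p = 0.0563 in limma), and 4 genes of the list were higher. Ptprc, Aif1 and Cx3cr1, which define blood cells and microglia, were not detected well enough to be tested. Itgam, a surface protein of myeloid cells and microglia, was 2.39-fold higher than in mESC with ratios of 1.31, 1.24 and 1.22, and another of its probes was called the opposite way. Of 18 endoderm and trophoblast genes 3 were higher and 4 lower, with 8 higher when the replicate number was a block, and Afp and Alb were not detected well enough. Their median was -0.76, 1.24 and 0.11 in replicates 1, 2 and 3, and the median of the means turned from 0.34 to -0.38 without replicate 2.

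Epithelial and cadherin genes divided by type. Of 30 genes 11 were higher and 13 lower, with a median of -0.11. Besides Cdh2, the cadherins Pcdh17, Cdh11 and Cdh13 were 31.5-fold, at least 26.4-fold and 23.9-fold higher. Besides Cdh1, the epithelial adhesion gene Epcam was 14.4-fold lower with ratios of -4.29, -2.89 and -4.37, and Cldn7 and Grhl2 were 6.93-fold and 6.4-fold lower. Of 23 muscle and neural crest genes 10 were higher and 10 lower. Sox10 and the pigment cell gene Dct were 7.66-fold and at least 4.75-fold higher, and Des, Myh6 and Myl4 of muscle were 3.94-fold, 3.71-fold and 3.62-fold lower.

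Metabolic genes moved in both directions, as did all genes (42.5% higher and 32.5% lower). Of 31 genes of cholesterol and fatty acid synthesis 8 were higher and 12 lower, and without replicate 1 of step 5 enriched cells 5 were higher. Abca1, which exports cholesterol, was 44.3-fold higher with ratios of 5.71, 5.51 and 5.19, and Scd2, a desaturase of brain, 6.71-fold. Lss, lanosterol synthase, was 3.42-fold lower. Of 27 genes of glycolysis and lactate 6 were higher and 10 lower. Aldoc and Eno2, isozymes of glia and neurons, were 21.7-fold and 3.96-fold higher, and Pdk1 and Hk2 were 4.02-fold and 3.27-fold lower.

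Of 25 immediate early and stress genes 12 were higher and 3 lower, with a median of 0.84, and without replicate 3 of step 5 enriched cells 1 was lower. Over all genes 42.5% were higher and 32.5% lower. Jun, Fos and Egr1, which respond to stimulation and to cell handling, were 7.34-fold, 6.86-fold and 6.44-fold higher. Of 25 imprinted genes 19 were higher and 2 lower, with a median of 1.26, and without replicate 1 of step 5 enriched cells 14 were higher. Dlk1, a regulator of growth, was 35-fold higher, with ratios of 4.02, 6.29 and 5.08, and Plagl1 and Magel2 18.2-fold and 16-fold. Phlda2 and Ascl2, genes of the placenta, were 7.76-fold and 5.26-fold lower. Of 24 genes of MHC class I and interferon response 11 were higher and 7 lower, close to the shares over all genes. B2m, the light chain of MHC class I, was 5.43-fold higher, and Bst2 and Ifitm1, which stem cells express, were 9.01-fold and 8.81-fold lower.

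The step 5 enriched cells were then set against the other groups directly, which cancels the reference and the dye. Against step 4 enriched cells, the group most like them, 811 genes were higher (4.84%) and 457 lower (2.72%), and with the replicate number as a block 1332 and 819. Glial lists held the largest shares of higher genes: 14 of 32 astrocyte genes and 15 of 28 oligodendrocyte genes were higher, with median differences of 1.60 and 1.88. Gfap was 5.66 higher on the log2 scale (SE 1.05, adjusted p = 0.0126), with step 4 ratios of -0.29, 1.37 and 0.93 that did not overlap those of step 5. Bcas1, a gene of maturing oligodendrocytes, was higher by 5.56 (adjusted p = 0.00208). Apoe lay below mESC at step 4, with -2.24, -2.97 and -3.21, and above it at step 5, a difference of 4.84 (SE 0.38, adjusted p = 0.000295). Mag, Cnp and Gpr17, also of oligodendrocytes, were higher by 4.60, 4.09 and 3.99. Cldn11 was higher by 4.75, a call lost with the scanner's log ratio. Mgp, a matrix protein, was higher by 5.07, with step 4 ratios of 4.75, 0.68 and 0.48, and lost its call without replicate 2 of either group.

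**Figure D4:**
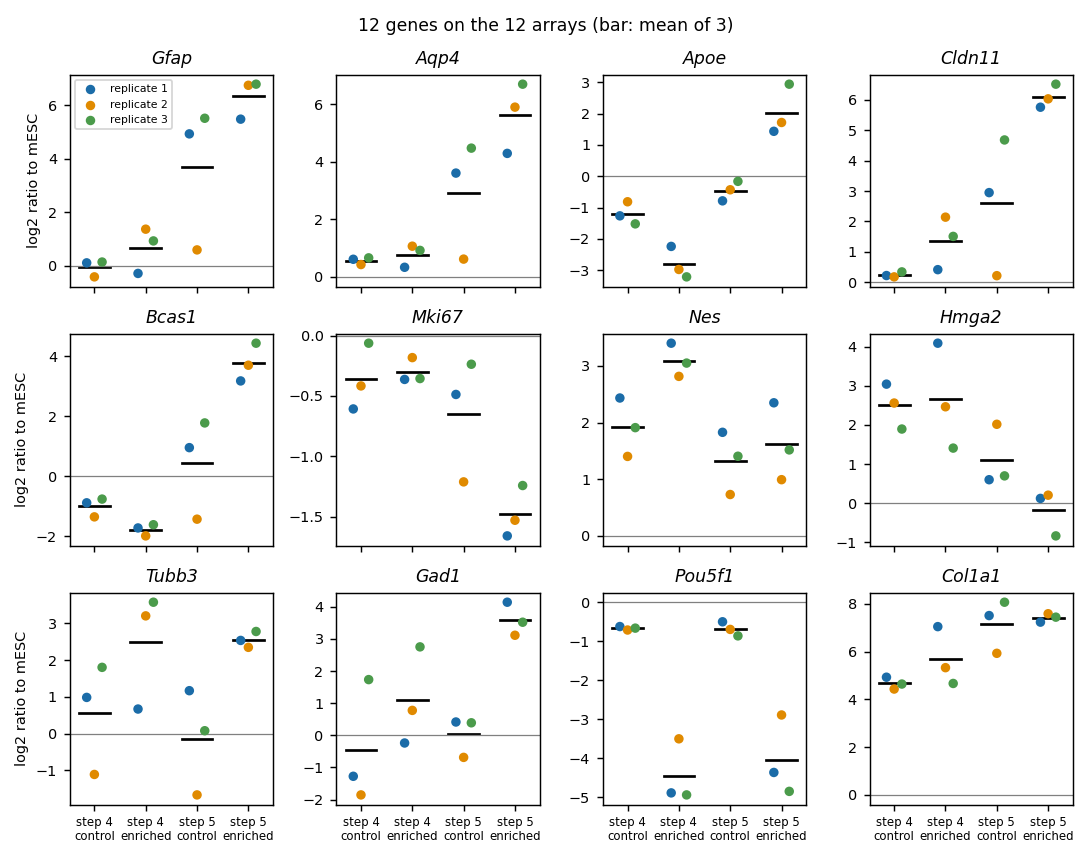
Log2 ratio to mESC (y axis) of 12 genes in the 4 groups (x axis), with a coloured point for each of 3 replicates and a black bar for the mean. Gfap, Aqp4, Apoe, Cldn11 and Bcas1 are higher in step 5 enriched than in step 4 enriched cells without overlap, Mki67 is lower, and Tubb3 and Pou5f1 overlap between both enriched groups.

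Most mitosis genes and some DNA replication genes were lower than at step 4. Of 27 mitosis genes 23 were lower, with a median difference of -0.96, and of 31 replication genes 12 were lower. Top2a had a difference of -1.07 (SE 0.20, adjusted p = 0.0121). For Mki67 it was -1.18 (standard error 0.23, adjusted p = 0.0174). Fgfbp3, which binds FGFs and releases them from the matrix, was lower by -3.63, and its step 4 ratios of 3.90, 5.67 and 6.38 lay above all of step 5 (1.66, 1.80 and 1.60). Fgf15, an FGF of the embryonic brain, was lower by -2.79 and Il17rd, an inhibitor of FGF signalling, by -2.19. Myh3, the embryonic myosin, Hmga2 and Ano1, a chloride channel, were lower by -3.47, -2.83 and -2.43. Il17rd lost its call without replicate 2 or 3 of step 5 enriched cells, and Hmga2 in 5 of the fits that left out an array. Nes was lower by -1.47 (adjusted p = 0.0489), a call that 10 alternatives did not keep.

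Of 31 neuronal transcription factors 2 were lower, a count of 1 to 7 when 1 array was left out, and 0 higher. Neurog2 and Insm1, factors of neuron-producing progenitors, were lower by -1.40 and -1.69, and Hes6 by -1.79. Of 31 cholesterol and fatty acid genes 7 were lower and 0 higher, among them Lss (-1.70) and Insig1 (-1.60). Fos, Nr4a1 and Arc, genes of neuronal activity and of stress, were higher by 2.81, 1.82 and 1.65.

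Between the enriched groups few genes of any kind passed, 4.84% higher and 2.72% lower over all genes, and neuronal lists held few as well. With the replicate number as a block, 1332 of all 16772 genes were higher and 819 lower. A share over all genes at an unadjusted p was not taken. Of 29 cytoskeletal genes 0 differed in either direction, and of 25 GABA genes 0, in the limma test. At an unadjusted p under 0.05, 2 cytoskeletal genes were higher and 1 lower, and 6 GABA genes were higher, and with the replicate number as a block 2 GABA genes passed. Of 39 synaptic genes 3 were higher (1 to 7 when 1 array was left out), 16 at an unadjusted p under 0.05 and 7 with the block. Of 18 glutamate genes 1 was higher, 9 at an unadjusted p under 0.05 and 5 with the block. Of 24 voltage-gated channel genes 1 was higher, 8 at an unadjusted p under 0.05 and 3 with the block. Of 42 adhesion and guidance genes 1 was higher and 2 were lower, and 7 were higher with the block. Tubb3 differed by 0.07 (SE 0.94, adjusted p = 0.976), and the step 4 ratios of 0.67, 3.21 and 3.58 spread around those of step 5. Gad1 differed by 2.50 (SE 0.92, adjusted p = 0.145), with step 4 ratios of -0.24, 0.78 and 2.75. With the replicate number as a block, Olig2 (adjusted p = 0.0112), Gria1 (0.0168) and Grm5 (0.0144) passed as higher at step 5, which they did not without it. The counts rested in part on single arrays. Without replicate 2 of step 4 enriched cells 6 astrocyte, 12 oligodendrocyte, 10 mitosis, 3 replication and 2 cholesterol genes passed, and 280 genes in all were higher and 127 lower. Without replicate 1 of those cells 8 astrocyte, 14 mitosis and 6 replication genes passed, and without replicate 3 of them 7 replication and 3 cholesterol genes, with 527 genes higher in all. Without replicate 1 of step 5 enriched cells 9 astrocyte, 13 mitosis and 4 replication genes passed, with 245 genes lower in all. Without its replicate 2 there were 8 astrocyte and 3 cholesterol genes, and 423 genes were higher and 292 lower. Without its replicate 3 there were 7 astrocyte, 12 mitosis, 4 replication and 2 cholesterol genes, and 400 genes were higher and 171 lower.

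Against step 5 control cells 3996 genes were higher (23.8%) and 3404 lower (20.3%). Without the control replicate that stood apart these counts were 3169 and 3107. Neuronal lists were higher in the enriched cells: 21 of 29 cytoskeletal, 27 of 39 synaptic and 19 of 25 GABA genes, with median differences of 1.94, 1.80 and 2.09. Tubb3 was 2.70 higher (SE 0.94, adjusted p = 0.0409) and Gad1 3.55 higher (SE 0.92, adjusted p = 0.0116). Stmn2, Syn1 and Elavl3 lay below mESC on all 3 control arrays and above it on all 3 enriched arrays, although 1 control array of Elavl3 lay at almost 0. Glial lists were higher too, with 23 of 32 astrocyte and 20 of 28 oligodendrocyte genes, while Gfap had control ratios of 4.92, 0.59 and 5.51 and did not pass (adjusted p = 0.0653). Without replicate 2 of the control cells, the array that stood apart, 14 cytoskeletal genes passed as higher. Leaving out 1 array gave 25 to 28 synaptic genes. Without replicate 3 of the enriched cells 11 astrocyte and 12 GABA genes passed. Without replicate 2 of the enriched or of the control cells 15 and 13 astrocyte genes passed. All 27 mitosis genes and 18 of 21 pluripotency factors were lower than in control cells.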

How the data were processed

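Scanner files gave, per the file headers, mean signals and median local backgrounds as intensity in Cy5 and Cy3, and a log10 ratio from the software. The deposited table holds log2 ratios that equalled the software's to 0.001 for 99.3 to 99.5% of probes. How the authors otherwise processed the values is not given in the sources used here. Mean signals were background-corrected (normexp, offset 50), loess-normalized within arrays and averaged over spots of a probe in R 4.3.3 with limma 3.58.1. Of 44397 spots 1377 were controls and were left out. Names came from RefSeq by accession for 26581 probes, another accession for 100, symbol for 2535 and synonym for 474, and 9739 had none. Probe positions are those of the array's annotation on mm9. A probe was tested (27950 of 39429) if Cy5, or Cy3, was well above background on all 3 step 5 enriched arrays, and the brightest probe stood for a gene.

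All 12 arrays entered a limma fit of 4 group means (8 residual degrees of freedom) with eBayes. Tests were two-sided, adjusted by Benjamini-Hochberg over all probes, with a threshold of 0.05. SE is that of the model and n = 3 arrays a group, biological replicates per the labels. On simulated data with 200 changed probes, 32% of those at a log2 of 0.5, 68% at 1 and 100% at 2 and 4 were recovered, with 12 false calls among 27950 probes. In the data 38.2% of probes were called higher and 34.1% lower, far more than were changed there. The simulated noise was independent between arrays and held no dye effect, so these rates describe that setting only. The number of arrays limits the precision.

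Named genes were 26 markers, the 12 highest and lowest ratios detected on both sides, the 8 highest and lowest bounds, in each of 34 lists the 4 highest and lowest members past the test (and up to 3 that went against the majority), the genes of 27 pairs, and the 6 highest and lowest differences from step 4 enriched cells. Other list members named were chosen after their values were seen. Some genes that the rule names are not reported here, and they remain in the counts. Members and lists were chosen with earlier results of these data known. The deviations of step 5 enriched arrays from their group mean correlated at 0.172 to 0.403 with those of the same replicate number in the other groups, so the number, which is also the slide, was taken to pair the samples and was tried as a block. Other alternatives were the background correction, the normalization, the filter, the probe rule, the fit and leaving out each array.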

Additional observations from a re-analysis of the deposited data

Results flagged for a closer look

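Gfap, Nes and Mki67 were among the marker genes that differed between the enriched cells of the 2 steps: Gfap was higher at step 5 by 5.66 on the log2 scale, and Nes and Mki67 differed by -1.47 and -1.18. Values are differences of log2 ratios between groups of 3 arrays, tested in the limma fit. Some named genes lay on opposite sides of mESC on all arrays of both groups compared. Against step 4 enriched cells these were Bcas1 (5.56) and Apoe (4.84), above mESC at step 5 and below it at step 4, and Rbl1 (-1.27) and Myh3 (-3.47), below mESC at step 5 and above it at step 4. Against step 5 control cells, Elavl3 (2.73), Apoe (2.49), St8sia5 (2.36), Stmn2 (2.35), Syn1 (1.96) and Olig2 (1.82) were above mESC in enriched cells and below it in control cells, for Elavl3 barely so on 1 array. Timp1 (-1.53), Hspb1 (-1.06), Ss18 (-0.91), Pomc (-0.73) and Shank1 (-0.33) were below mESC in enriched cells and above it in control cells. The differences of Timp1 and Hspb1 rest on calls against mESC that 9 and 4 alternatives did not keep. Without loess the enriched cells lay above mESC for Pomc (0.33) and Shank1 (0.33), and Ss18 and Rbl1 lost their calls against mESC. With 3 arrays a group, single arrays that stand apart were not tested.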

How the results depend on the processing

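With 3 arrays a group, the spread is borrowed across 12 arrays, and probes near background give bounds only. Of 269 named genes called against mESC, 232 kept direction and call in every alternative but the test against a 2-fold difference, in which 72 named genes no longer passed. Against mESC, that test left 3233 probes higher and 2295 lower (2478 and 1538 genes), and no loess with median centring left 4967 probes and 2968 genes lower. Leaving out 1 array gave 9668 to 10833 probes higher and 8590 to 9748 lower (6516 to 7223 and 4949 to 5573 genes). With the replicate number as a block, 11115 probes were higher and 10001 lower, and Ap3b2, Ezh1 and Il17rd gained a call. Against step 4 enriched cells the block gave 1824 probes higher and 1320 lower (1332 and 819 genes), and the scanner's log ratio 538 genes higher. Leaving out 1 array gave 375 to 1361 probes higher and 190 to 877 lower (280 to 1006 and 127 to 548 genes), lowest without step 4 enriched replicate 2. Against step 5 control cells it gave 4321 to 5942 probes higher and 4352 to 5635 lower (3047 to 4107 and 2659 to 3441 genes). Signs turned without loess for Shank1 (0.33), Ddc (0.044), Nova1 (0.36), Fmr1 (0.19), Pomc (0.33) and Gal (0.17), over all probes of a gene for Shank1 (0.027) and Nova1 (0.49), for the Hox median (-0.073) over probes in both channels, and for the endoderm median without replicate 2 (leaving out 1 array gave -0.38 to 0.74). The causes were not tested.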

Other observations

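Genes of endoderm and trophoblast had their highest median in replicate 2 in each of the 4 groups. Their median log2 ratio to mESC over 18 genes was 0.31, 2.43 and 0.95 in replicates 1, 2 and 3 of step 4 control cells, 0.23, 1.68 and -0.12 in step 4 enriched cells, and 0.30, 2.62 and 0.91 in step 5 control cells. In step 5 enriched cells it was -0.76, 1.24 and 0.11. The order of replicates 1 and 3 was not the same in all groups.

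The pluripotency list had medians of -3.17 to -4.06 at step 4 and -2.90 to -3.84 at step 5 in enriched cells, and 2 of its 21 genes, Otx2 (-1.26) among them, were lower at step 5. That count was 0 without replicate 2 of step 4 enriched cells or replicate 2 or 3 of step 5 enriched cells. Forebrain genes Lhx5 (-1.96) and Six6 (-1.59) and hindbrain gene Irx2 (-1.12) were lower at step 5 as well. The 3 lower genes of the forebrain list fell to 0 without replicate 2 of step 4 enriched cells. The 3 of the midbrain and hindbrain list fell to 0 without that replicate or replicate 1 or 3 of step 5 enriched cells, and both lists held 1 with the scanner's log ratio. Pigment cell genes Dct (2.01) and Mitf (1.98) were higher. Of the mesenchyme list Ogn (2.88), Fap (2.86) and Thy1 (1.85), the last also a neuronal surface protein, were higher at step 5 than at step 4 in enriched cells. These 3 fell to 0 without replicate 2 or 3 of step 4 enriched cells or replicate 2 of step 5 enriched cells, and 1 passed with the scanner's log ratio.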
